A study of Mus musculus with 6 samples.

Results

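Cells that divide switch on a shared set of genes for mitosis, the step in which duplicated chromosomes are pulled apart on a spindle of microtubules. Here 56 mitosis and spindle genes were followed in mouse kidney fibroblasts with and without Th17 cells. They form a list of gene symbols set by known role and not by a cutoff on a measured value, but the list was drawn up with earlier results of these data known. All 56 were found among the 34745 genes of the expression table and passed the filter on low counts that left 13088 genes to test. The fibroblasts were primary cells grown out of digested wild-type (WT) mouse kidney, and their age was not stated. The study's methods name Balb/c mice without tying that strain to these cells. After the cells had settled for 6 h, an insert with pores of 0.4 μm was placed over one group and seeded with induced Th17 cells, which are helper T cells that make interleukin-17, and the cocultured fibroblasts under it were collected after 24 h. The other group carried no treatment label and is called lone fibroblasts. Each group had 3 libraries. Whether lone wells held an empty insert or the medium of the Th17 cells was not stated, nor whether replicates stood for different cultures or animals, so the errors and p-values given here measure only how far these libraries differ, which may be technical.

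The total count per library lay between 12050529 and 13209581, and counting intervals would cover counting error only. Libraries of the same group were not copies of each other, since their chi-square statistic per gene was at least 6.38 against a value near 1 for counting noise. The fibroblast marker Col1a1 was abundant in all libraries, with at least 74446 counts in each. Other fibroblast markers ranged widely, down to between 38 and 99 counts for Lum and between 62 and 118 for S100a4. T cell markers were nearly absent, with Cd3d, Cd8a, Cd2, Il17a and Il17f at 0 counts in all libraries and only Lck of the 11 listed genes expressed enough to test.

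Mitosis is driven by Cdk1, a kinase that works only when bound to a cyclin. Its partners and helpers build the spindle, attach chromosomes to it through kinetochores, and hold the cell in place through a checkpoint until every chromosome is attached. The anaphase-promoting complex (APC/C), a ubiquitin ligase, then ends mitosis by marking securin and the cyclins for destruction. In most cell types the transcripts of these genes build up late in the cell cycle and are scarce in resting cells, so they are widely read as a sign of how many cells in a culture are dividing. In a bulk RNA sample fewer dividing cells and less of the RNA per dividing cell cannot be told apart.

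Coculture with Th17 cells was associated with lower expression of nearly the whole group. Of the 56 genes, 55 were lower with an adjusted p below 0.05 by edgeR's quasi-likelihood test, compared with 2612 of the 13088 genes tested (20%). The exception was Incenp. None was higher under this or the later criteria, whereas 17.1% of all genes were higher with an adjusted p below 0.05, 3.87% with a fold change above 2 as well, and 24.3% without overlap between the groups. With the study's further limit of a fold change above 2, 26 genes were lower, compared with 7.78% of all genes tested. This count fell to 9 with limma on log2(FPKM + 1) and to 7 with glmTreat, which takes a 2-fold difference as its null. The limit ran through the middle of the group, with Nuf2 just inside it at a log2 fold change of −1.01 and Nek2 just outside at −0.98. The CPM values (counts scaled to library size and TMM factors) of the groups did not overlap for 55 genes, each lower in all cocultured libraries, whereas this held for 26.1% of all genes tested. The median log2 fold change (log2FC) of the 56 genes was −0.96, a 1.94-fold difference, and the median of all genes tested was 0.00. The quartiles of the group were −1.15 and −0.82, and the full range was from −1.45 for Pttg1 to −0.27 for Incenp.

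**Figure D1:**
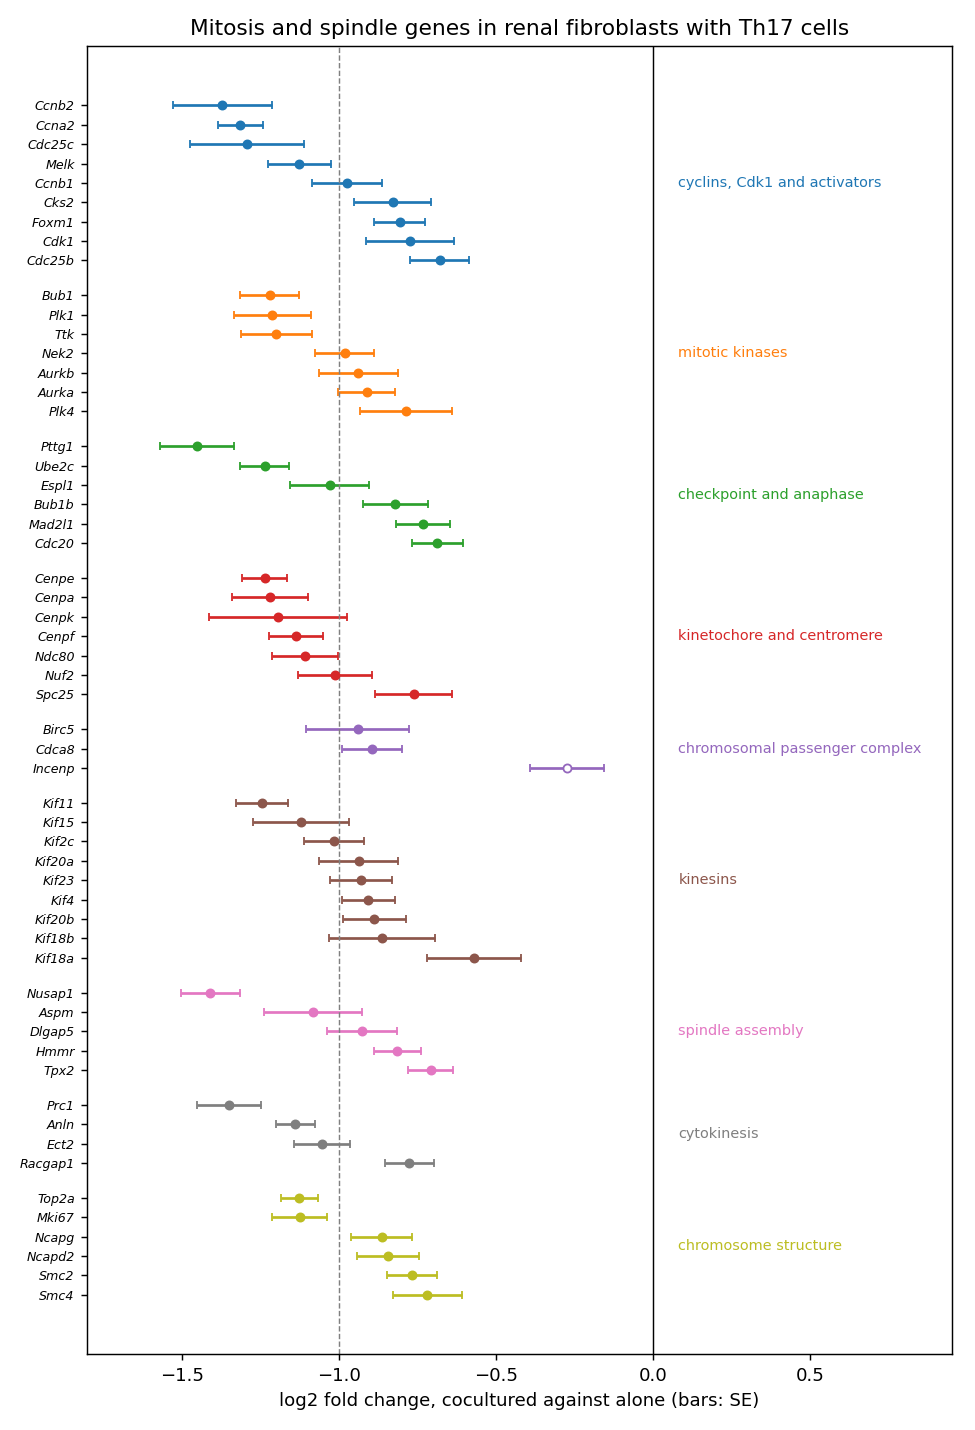
Log2 fold change of each of the 56 genes (x axis, cocultured against alone) with its standard error as a bar, one row per gene and grouped by role; filled points passed an adjusted p below 0.05 and the dashed line marks a fold change of 2. All points lie left of 0 and only the Incenp point is open.

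**Figure D2:**
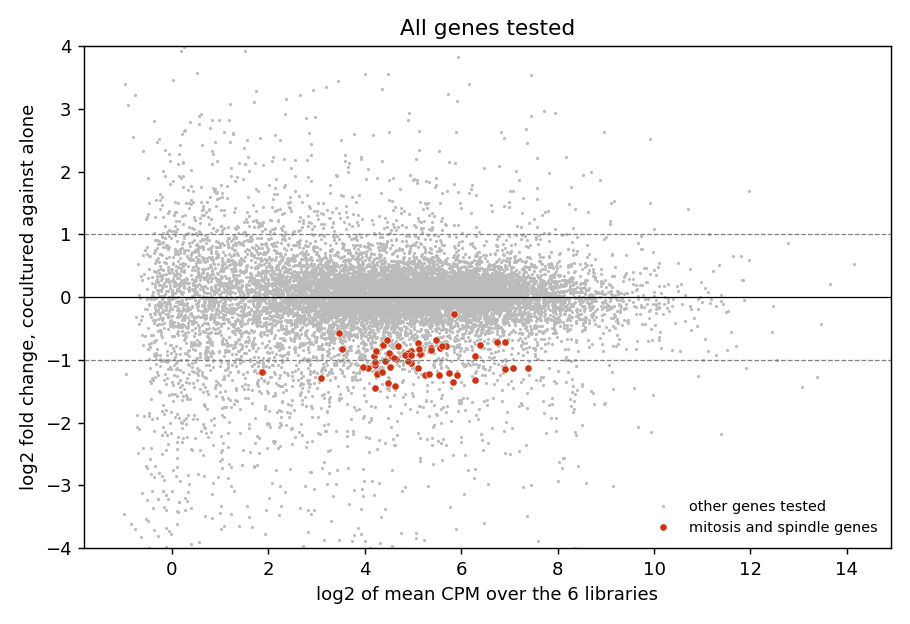
Log2 fold change (y axis) against the log2 of the mean CPM over the 6 libraries (x axis) for the 13088 genes tested, with the 56 mitosis and spindle genes in red and fold changes of 2 as dashed lines; 118 genes lie beyond the plotted range of 4 on either side. The red points form a band around −0.96 across the range of expression, inside the spread of the other genes.

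Pooled, the 56 genes held 40330, 38817 and 36304 counts in the lone libraries and 21094, 20818 and 19969 in the cocultured libraries. This was 0.305%, 0.300% and 0.301% of all counts in lone fibroblasts and 0.160%, 0.166% and 0.156% after coculture, a mean of 0.302% ± 0.00287 against 0.161% ± 0.00492 (SD, n = 3 each). The cocultured share was 0.533 times the lone share, and the 2 sets of values lay far apart compared with their spread. Within a group the libraries differed little for these genes: the median gene stood between −0.04 and 0.03 from its own group's mean on the log2 CPM scale in every library. For a typical gene the coefficient of variation was 6.73% between lone libraries and 7.64% between cocultured libraries.

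A known feature of mitotic genes is a pair of promoter elements, the CHR (cell cycle genes homology region), bound by the MuvB complex that silences these genes in resting cells and later activates them with B-Myb and FoxM1, and CCAAT boxes, bound by NF-Y. Promoter windows from RefSeq (build GRCm38.p6, 250 bases before to 50 after the start) were matched by symbol for 47 of the 56 genes, 51 windows in all. To show what these genes share, windows of 5 genes chosen by name are given 5′ to 3′ on the strand of the gene, with CHR cores (TTTGAA or TTCGAA) and CCAAT boxes (CCAAT) in capitals, on either strand. They lie at chr13:100786437-100786736 (minus strand, Ccnb1), chr9:70421505-70421804 (minus, Ccnb2), chr4:118437294-118437593 (minus, Cdc20), chr7:122159185-122159484 (plus, Plk1) and chr10:69352863-69353162 (minus, Cdk1).
Ccnb1: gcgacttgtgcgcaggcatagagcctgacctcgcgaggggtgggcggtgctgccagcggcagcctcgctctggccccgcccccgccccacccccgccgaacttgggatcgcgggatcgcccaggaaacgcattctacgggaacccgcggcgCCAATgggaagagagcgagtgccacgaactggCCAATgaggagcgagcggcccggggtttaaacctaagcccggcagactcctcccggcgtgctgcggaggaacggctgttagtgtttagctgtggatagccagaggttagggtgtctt
Ccnb2: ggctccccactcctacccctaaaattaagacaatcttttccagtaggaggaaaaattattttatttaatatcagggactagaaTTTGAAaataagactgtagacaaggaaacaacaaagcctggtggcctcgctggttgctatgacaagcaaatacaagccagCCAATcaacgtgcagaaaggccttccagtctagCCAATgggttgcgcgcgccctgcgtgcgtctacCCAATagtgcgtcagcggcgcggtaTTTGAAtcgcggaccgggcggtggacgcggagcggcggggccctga
Cdc20: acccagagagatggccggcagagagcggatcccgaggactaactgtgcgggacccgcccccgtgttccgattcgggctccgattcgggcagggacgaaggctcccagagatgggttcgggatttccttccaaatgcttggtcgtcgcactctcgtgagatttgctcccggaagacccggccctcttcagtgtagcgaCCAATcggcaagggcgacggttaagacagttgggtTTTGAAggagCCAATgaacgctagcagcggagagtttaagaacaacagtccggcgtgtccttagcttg
Plk1: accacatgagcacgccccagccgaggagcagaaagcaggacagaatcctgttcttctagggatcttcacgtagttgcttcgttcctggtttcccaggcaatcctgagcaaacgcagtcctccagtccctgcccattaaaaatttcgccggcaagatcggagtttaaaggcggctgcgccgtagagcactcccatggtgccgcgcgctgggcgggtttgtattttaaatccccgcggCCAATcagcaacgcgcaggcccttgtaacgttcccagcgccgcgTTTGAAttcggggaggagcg
Cdk1: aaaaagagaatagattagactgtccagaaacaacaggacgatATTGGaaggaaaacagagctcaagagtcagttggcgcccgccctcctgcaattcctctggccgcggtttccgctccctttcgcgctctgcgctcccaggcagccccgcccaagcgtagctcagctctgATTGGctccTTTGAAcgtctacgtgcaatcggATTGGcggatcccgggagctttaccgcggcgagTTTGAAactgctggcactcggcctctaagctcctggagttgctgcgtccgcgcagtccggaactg

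In the Cdc20 window a CHR core began 18 bases before the start, between CCAAT boxes that began 53 and 8 bases before it. The Cdk1 window held 2 CHR cores, beginning 71 and 15 bases before the start, and 3 CCAAT boxes in the reverse direction. In the Ccnb2 window 3 CCAAT boxes followed each other at 87, 54 and 21 bases before the start, ahead of a CHR core that began at base 5 of the transcript, and another core lay 167 bases before it, and the Plk1 window held 1 of each. The Ccnb1 window held 2 CCAAT boxes and none of the CHR letters searched. Over the whole group 36 of 51 windows (70.6%) held a CHR core, compared with 19.2% of all 32851 windows in the table and 13.6% of the 12338 windows of genes tested here. CCAAT boxes were in 38 windows (74.5%), compared with 37.4% of all windows, and both elements were in 31 (60.8%), compared with 7.52%. At least 2 CCAAT boxes were in 24 windows (47.1%), compared with 11.5%. A CHR core and a CCAAT box can share at most 1 letter, and a match describes the sequence, not binding. The size of the change was similar with or without a CHR core in the window, with a median log2 fold change of −1.02 over 34 genes that had one and −0.98 over 13 that did not.

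**Figure D3:**
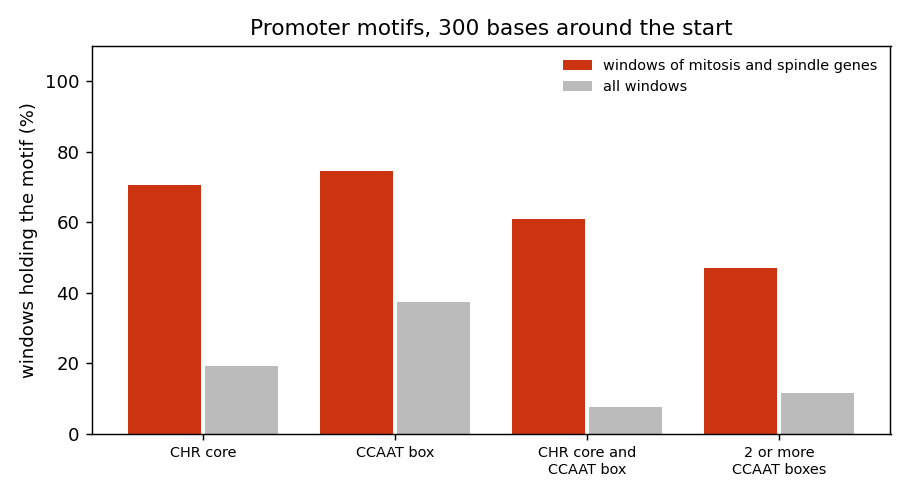
Share of promoter windows (y axis, percent) that hold a CHR core, a CCAAT box, both, or at least 2 CCAAT boxes (x axis), in red for the 51 windows of the mitosis and spindle genes and in grey for all 32851 windows. Each red bar is taller than the grey bar beside it, most of all for both elements together (60.8% against 7.52%).

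All 9 genes of the Cdk1 engine fell, with a median log2 fold change of −0.97. Cyclin A2 (Ccna2), which partners Cdk1 at the entry to mitosis, gave 1397, 1388 and 1354 counts alone, compared with 591, 604 and 558 beneath Th17 cells, from 111 ± 3.20 to 44.6 ± 2.56 CPM (SD, n = 3 each; log2FC −1.31 ± 0.071 SE, adjusted p = 1.06e-06 in edgeR). For cyclin B2 (Ccnb2) the counts were 386, 419 and 397 in lone fibroblasts and 127, 192 and 169 with Th17 cells (log2FC −1.37 ± 0.157 SE, adjusted p = 0.000148 in edgeR), and for cyclin B1 (Ccnb1), the main mitotic cyclin, 404, 368 and 437 against 226, 212 and 211 (−0.97 ± 0.111 SE, adjusted p = 0.000139 in edgeR). Every cocultured library was below every lone library for these cyclins. Cdk1 itself varied more between libraries, with 836, 942 and 666 counts alone and 472, 428 and 601 in coculture, so its decrease (−0.77 ± 0.139 SE, adjusted p = 0.00216 in edgeR) rested on groups that lay close together, although they did not overlap. Its activating phosphatases differed in size of change, from −1.29 (SE 0.181) for Cdc25c to −0.68 (SE 0.094) for Cdc25b, whose counts were 354, 327 and 330 alone and 215, 225 and 224 in coculture (edgeR adjusted p = 0.00047). Foxm1, the transcription factor that activates late cell cycle genes, fell from 53.0 ± 1.86 to 30.3 ± 1.89 CPM (SD, n = 3 each), with 688, 646 and 647 counts alone and 420, 402 and 370 in coculture (log2FC −0.81 ± 0.080 SE, adjusted p = 5.85e-05 in edgeR). The kinase Melk and Cks2, the small subunit that docks Cdk1 to its substrates, were lower by 1.13 and 0.83 on the log2 scale.

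The 7 mitotic kinases fell by similar margins, between −1.22 for Bub1 and −0.79 for Plk4. Plk1, which matures the centrosomes and helps to switch Cdk1 on, gave 931, 883 and 968 counts alone, compared with 414, 487 and 363 beneath Th17 cells, from 74.6 ± 6.38 to 32.2 ± 5.46 CPM (SD, n = 3 each; log2FC −1.21 ± 0.123 SE, adjusted p = 6.77e-05 in edgeR). Its relative Plk4, which starts centriole duplication, showed the smallest change of the kinases. Ttk and Bub1, which signal from unattached kinetochores, both fell by about the same amount as Plk1, at −1.20 and −1.22. Aurka, the kinase of the spindle poles, and Nek2, which separates the centrosomes, had log2 fold changes of −0.91 and −0.98. Aurkb, the kinase of the inner centromere, had 286, 318 and 298 counts alone and 185, 170 and 141 in coculture (−0.94 ± 0.124 SE, adjusted p = 0.000369 in edgeR), and no cocultured library reached a lone one.

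Aurkb works in the chromosomal passenger complex together with survivin (Birc5), borealin (Cdca8) and the scaffold protein Incenp, and Incenp was the one gene of the 56 that did not pass. Birc5 had 345, 365 and 425 counts alone and 185, 249 and 189 in coculture (log2FC −0.94 ± 0.163 SE, adjusted p = 0.00175 in edgeR), and Cdca8 was lower by 0.89 (SE 0.096). Incenp (ENSMUSG00000024660, chromosome 19, 9872297 to 9899533 on mm10, protein-coding) had 817, 730 and 804 counts alone and 636, 788 and 619 in coculture, 63.0 ± 5.16 against 52.1 ± 8.49 CPM (SD, n = 3 each). Its groups overlapped, because cocultured replicate 2 stood above the lowest lone library, and the difference did not pass (log2FC −0.27 ± 0.119 SE, adjusted p = 0.101 in edgeR). Without cocultured replicate 2 it was −0.42 with an edgeR adjusted p of 0.0114. Over all alternatives the adjusted p of Incenp ran from 0.0114 to 0.26. Another annotated gene overlaps Incenp on the same strand over 1208 bases, and its part in these counts was not tested.

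**Figure D4:**
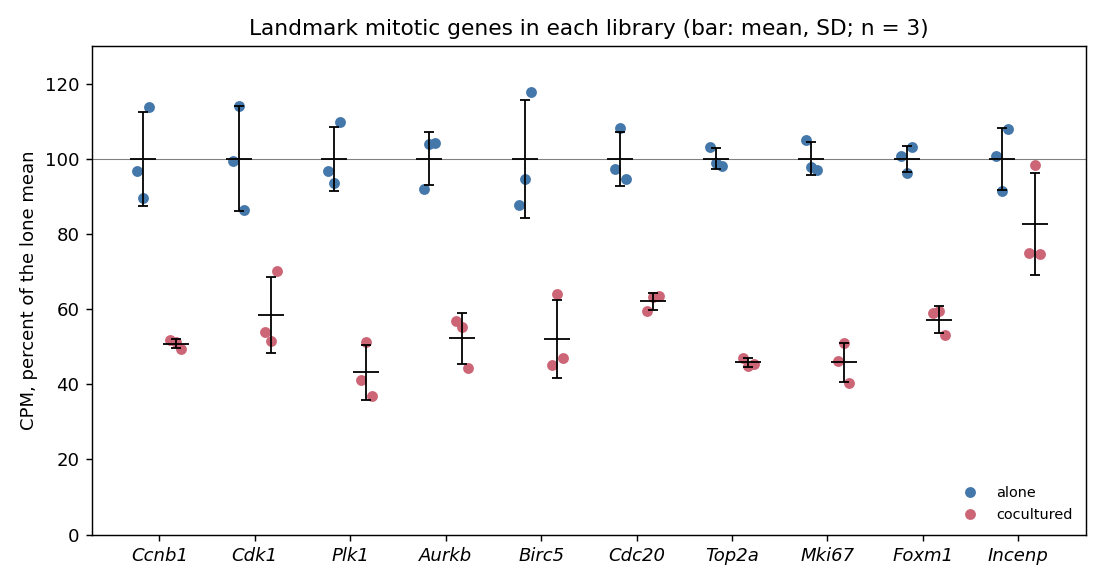
CPM of 9 landmark genes and Incenp in each library, as a percentage of the gene's lone mean (y axis), with lone libraries in blue, cocultured libraries in red, and bars for the mean and SD (n = 3 each). Cocultured points lie below the lone points of the same gene for all but Incenp, where 1 of 3 overlaps them.

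Checkpoint and anaphase genes held both the largest decrease of the group and some of the smaller ones. Pttg1 encodes securin, which keeps the protease separase inactive until anaphase. Pttg1 (ENSMUSG00000020415, chromosome 11, 43420250 to 43426251 on mm10, protein-coding) had 321, 335 and 353 counts alone and 146, 119 and 124 in coculture, from 27.1 ± 2.52 to 9.88 ± 0.847 CPM (SD, n = 3 each; log2FC −1.45 ± 0.118 SE, adjusted p = 1.52e-05 in edgeR). Ube2c, the enzyme that feeds ubiquitin to the APC/C, fell by 1.24 on the log2 scale and Espl1, the gene of separase, by 1.03. The APC/C activator Cdc20 changed less, with 689, 752 and 615 counts alone and 440, 443 and 459 in coculture (−0.69 ± 0.082 SE, adjusted p = 0.000188 in edgeR). The checkpoint proteins that hold Cdc20 in check, Mad2l1 and Bub1b, had log2 fold changes of −0.73 and −0.82. These 6 genes were all past an adjusted p of 0.05, and 3 of them past a fold change of 2.

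Kinetochore and centromere genes had the lowest median of the 9 roles, −1.14, and 6 of 7 passed a fold change of 2. Differences between roles were not tested. Cenpa, the histone that marks the centromere, fell by 1.22 on the log2 scale, and Cenpe and Cenpf, large proteins that link kinetochores to microtubules, by 1.24 and 1.14. Within the Ndc80 complex, the microtubule hook of the kinetochore, log2 fold changes were −1.11 for Ndc80, −1.01 for Nuf2 and −0.76 for Spc25. Cenpk had the fewest counts of all 56 genes, between 56 and 69 alone and between 25 and 38 in coculture, and therefore the largest standard error (−1.19 ± 0.22 SE, adjusted p = 0.0025 in edgeR).

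All 9 kinesins besides Cenpe, motor proteins that walk along or shorten microtubules, fell. Kif11, which pushes the spindle poles apart, fell most, with a log2 fold change of −1.24 (± 0.081 SE, adjusted p = 3.63e-06 in edgeR), and its partner in that task, Kif15, followed at −1.12. Kif20a and Kif23, motors of the midzone where the cell is cut, had log2 fold changes of −0.94 and −0.93. Kif2c, which removes tubulin from wrongly attached microtubules, was at −1.02, the chromosome arm motor Kif4 at −0.91, and Kif18b and Kif20b at −0.86 and −0.89. Kif18a, which dampens chromosome movement at the spindle equator, had the smallest change among genes that passed, with 201, 147 and 149 counts alone and 127, 102 and 123 in coculture (−0.57 ± 0.149 SE, adjusted p = 0.0151 in edgeR). The call for Kif18a depended on single libraries: without lone replicate 1 its log2 fold change was −0.44 with an adjusted p of 0.064, and without cocultured replicate 2 it was −0.50 with an adjusted p of 0.0536. Its adjusted p was between 0.00677 and 0.064 over all alternatives.

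The 5 spindle assembly genes and the 4 cytokinesis genes fell as well. Nusap1, which binds and bundles spindle microtubules, was second only to Pttg1, with 453, 490 and 401 counts alone and 179, 170 and 183 in coculture (log2FC −1.41 ± 0.095 SE, adjusted p = 4.38e-06 in edgeR). Tpx2, which activates Aurka on the spindle, was among the least changed, with 1723, 1743 and 1495 counts alone and 1077, 1104 and 1008 in coculture (−0.71 ± 0.070 SE, adjusted p = 5.85e-05 in edgeR). Aspm, which focuses the spindle poles, Dlgap5, which stabilises kinetochore fibres, and the microtubule-binding protein Hmmr had log2 fold changes of −1.08, −0.93 and −0.81. Prc1 bundles the microtubules of the midzone, and its counts went from 959, 1046 and 1027 alone to 420, 457 and 376 in coculture (−1.35 ± 0.102 SE, adjusted p = 9.66e-06 in edgeR). The annotation places another protein-coding gene, Rccd1, across the whole of Prc1 on the opposite strand, and reads of the pair could not be told apart if counting ignored strand. Ect2, the exchange factor that activates RhoA at the division plane, fell by 1.05 on the log2 scale, and Racgap1, which recruits Ect2 to the midzone, by 0.78. Anln, an organiser of the contractile ring, had the highest level per length of all 56 genes in lone fibroblasts, 29.8 ± 0.631 FPKM, and 14.2 ± 0.600 FPKM after coculture (SD, n = 3 each; FPKM is the fragment count scaled to gene length and library total). At the other end was Kif18a, with 1.09 ± 0.169 FPKM alone. The order of the genes by FPKM was nearly the same in both groups (Spearman rho 0.97 across 56 genes, which are not independent replicates), while Incenp went from rank 9 alone to rank 1 in coculture.

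Among genes of chromosome structure, Top2a and Mki67 passed a fold change of 2. Top2a, the topoisomerase that untangles sister chromatids (ENSMUSG00000020914, chromosome 11, 98992943 to 99024189 on mm10), had 3066, 2882 and 2674 counts alone and 1461, 1318 and 1379 in coculture, from 230.5 ± 6.44 to 106 ± 2.64 CPM (SD, n = 3 each; log2FC −1.13 ± 0.058 SE, adjusted p = 7.9e-07 in edgeR). Mki67, the gene of the Ki-67 antigen used to stain dividing cells, fell from 186 ± 8.04 to 85.2 ± 9.73 CPM, with 2513, 2303 and 2134 counts alone and 1157, 1203 and 987 in coculture (SD, n = 3 each; −1.12 ± 0.088 SE, adjusted p = 1.21e-05 in edgeR). The groups were well separated for both. The condensin genes Ncapg, Ncapd2, Smc2 and Smc4, whose proteins compact mitotic chromosomes, had smaller changes, from −0.86 to −0.72.

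For 33 of the 56 genes another annotated gene overlaps the locus on either strand, a protein-coding one for 13, and the sources do not say whether reads were counted by strand. The other 23 genes were all lower with an adjusted p below 0.05, with a median log2 fold change of −0.94. Gene length and GC content showed little relation to the size of the change across the 56 genes (Spearman rho 0.14 and 0.08, as descriptions).

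To see how far the pattern reached, 8 further lists of cell division genes were examined. Their counts stand against 20% of all genes tested that were lower and 17.1% that were higher at an adjusted p below 0.05. Of the other kinetochore, centromere and checkpoint genes 27 of 33 were lower and none higher at an adjusted p below 0.05, with a median log2 fold change of −0.77, from −1.52 for Oip5, which loads Cenpa, to −0.43 for Cenpt among those that passed. With library size as the only scaling 26 were lower and 1 higher, and with upper quartile scaling 27 and 1. Of 35 other spindle, centrosome and cytokinesis genes, 22 were lower and 3 higher (median −0.60). Pimreg fell more than any of the 56 genes, by 1.74 on the log2 scale (± 0.112 SE, adjusted p = 3.28e-06 in edgeR), whereas Psrc1, a spindle protein and a known target of p53, rose by 0.90 (± 0.084 SE, adjusted p = 4.07e-05 in edgeR). All 7 replication genes, the MCM helicase subunits and the clamp Pcna, were lower, from −1.18 for Mcm6 to −0.29 for Mcm2, and with library size as the only scaling 6 of them passed.

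The other 5 lists had medians nearer 0. Of 17 APC/C subunits and regulators 4 were lower (23.5%, near the share of all genes) and none higher, with a median of −0.15. With library size as the only scaling 4 were lower and 1 higher. The lowest was Fbxo5, the APC/C inhibitor that is itself made late in G1 and S phase, at −1.0 (± 0.159 SE, adjusted p = 0.00106 in edgeR), and Cdc23 was at −0.32. Among 16 other condensin and cohesin genes 8 were lower (50%) and 1 higher (6.25%), with a median of −0.30, from Esco2, which acetylates cohesin in S phase, at −1.21, to Wapl, which releases cohesin, at 0.23. Of 13 other regulators of Cdk1 6 were lower (46.2%) and 3 higher (23.1%, near the share of all genes), from −1.17 for Cdkn3 to 0.46 for Plk3 (± 0.083 SE, adjusted p = 0.00224 in edgeR).

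Of 20 MuvB, Myb, E2F and pocket protein genes, which include the factors that switch mitotic genes on or off, 7 were lower (35%) and 1 higher (5%), and their median was −0.03, or 0.03 with library size as the only scaling. Mybl2, which encodes B-Myb, fell from 21.1 ± 1.72 to 10.9 ± 2.0 CPM (SD, n = 3 each; log2FC −0.96 ± 0.147 SE, adjusted p = 0.000864 in edgeR), and the MuvB subunit Lin9 fell by 0.58 (± 0.118 SE, adjusted p = 0.00441 in edgeR). E2f7, a repressor of the E2F family, was the lowest at −1.09 and E2f6 the highest at 0.49. E2f1 had a log2 fold change of 0.15 (± 0.093 SE, adjusted p = 0.246 in edgeR). Of 16 G1 cyclins, kinases and inhibitors 7 were lower (43.8%) and 4 higher (25%), or 8 and 3 with DESeq2. Cyclin D1 (Ccnd1), which links growth signals to the cell cycle, went the opposite way from the mitotic cyclins, with 1198, 1155 and 1067 counts alone and 4895, 4775 and 4514 in coculture (log2FC 1.98 ± 0.061 SE, adjusted p = 4.56e-08 in edgeR). The cyclins Ccne1 and Ccnd2 were also higher, by less, at 0.37 and 0.25. Ccne2 and the kinase Cdk2 were lower, at −0.62 and −0.34. Cdkn1a, the gene of the CDK inhibitor p21, was slightly higher, from 486 ± 8.34 to 544 ± 13.3 CPM (SD, n = 3 each; 0.16 ± 0.052 SE, adjusted p = 0.0355 in edgeR), and with DESeq2 its adjusted p was 0.0635. The inhibitor Cdkn2c was lower, at −1.33 (± 0.145 SE, adjusted p = 0.000108 in edgeR). Further inhibitors were lower at an adjusted p below 0.05 in edgeR: Cdkn1b at −0.90, Cdkn1c at −0.76, Cdkn2b at −0.75 and Cdkn2d at −0.57. Cdkn2a, at 0.10, did not pass.

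**Figure D5:**
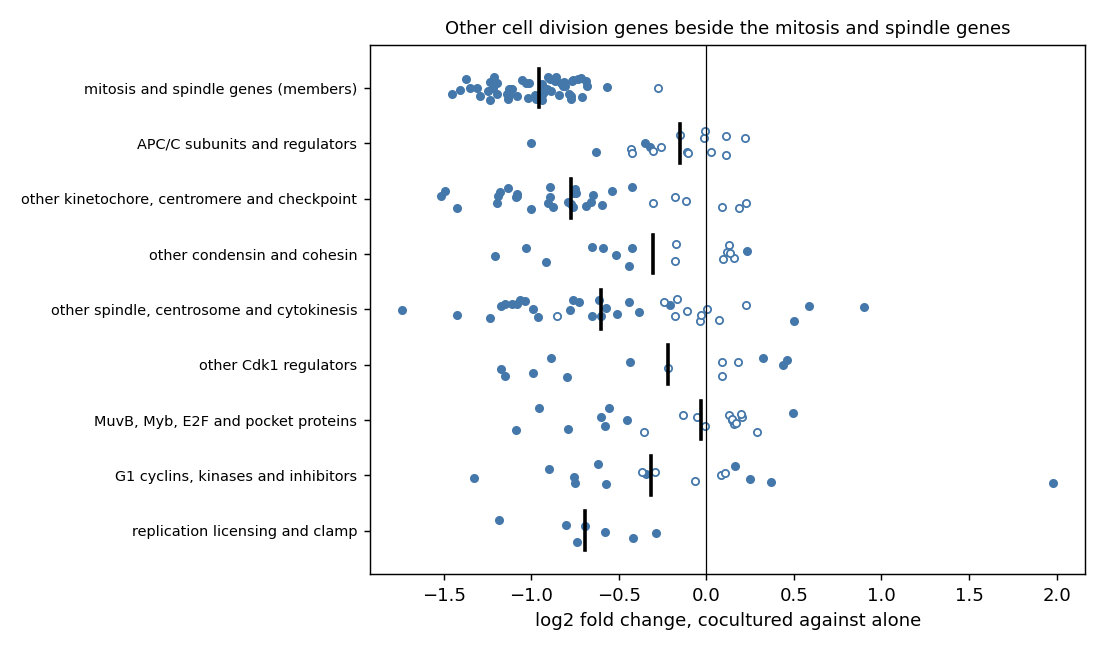
Log2 fold change (x axis) of each gene in the main group and in 8 further cell division lists (rows), with filled points for an adjusted p below 0.05 and a vertical bar at each list's median. The main group and the other kinetochore genes lie almost wholly left of 0, the APC/C list is centred near 0, and the far right point of the G1 list is Ccnd1 at 1.98.

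Markers of other cells moved at the same time. The summed CPM of 12 macrophage markers lay between 58.7 and 61.8 in lone libraries and between 19.9 and 21.1 in cocultured libraries, and Adgre1 (F4/80) and Ptprc (CD45) were at 0 counts in each cocultured library. Of the 6 macrophage markers tested 5 were lower. The exception was Cd14, with a mean of 11.2 CPM in each group, which made much of the sum left in coculture. The summed CPM of the 56 mitosis and spindle genes lay between 3066 and 3130 alone and between 1519 and 1635 in coculture. The summed CPM of 10 fibroblast markers went from between 29754 and 31613 alone to between 13419 and 14904 in coculture. Most of this sum was Col1a1 and Col1a2, with means of 15072 and 12462 CPM alone and 6228 and 4621 in coculture. The median log2FC of the 10 markers was −0.53, and 8 were lower and 1 higher, Dcn with a log2FC of 1.5. For endothelium the summed CPM was 9.72 to 9.95 alone and 4.72 to 5.58 in coculture, but only 1 of 3 tested markers was lower. This was Kdr, with means of 5.55 CPM alone and 0.126 in coculture, which made most of the fall of the sum. Pecam1 (1.24 and 1.32 CPM) and Egfl7 (2.59 and 2.92) were slightly higher and did not pass. For epithelium 1 of 2 tested markers was lower, Lrp2, with a summed CPM of 3.89 to 5.69 alone and 1.49 to 1.67 in coculture. The T cell markers summed to 4.42 to 5.53 CPM alone and 2.21 to 2.67 in coculture. Most of this sum was Lck, with means of 4.72 CPM alone and 2.29 in coculture. Every other T cell marker had at most 6 counts in a library, a value reached by Cd3e in cocultured replicate 3. The part of these cells in the decrease of mitotic transcripts was not tested.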

How the data were processed

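RNA from primary mouse renal fibroblasts was sequenced on an Illumina NovaSeq after library preparation with a VAHTS kit. Filtering by the authors used Seqtk, alignment HISAT2 2.0.4 and counting of fragments per gene StringTie 1.3.3b; the submitters' processing notes name mm10, whose positions were met by 99.9% of 34267 gene identifiers found in GENCODE M21. The authors deposited raw fragment counts and, beside them, FPKM values scaled to gene length and library total. Use of strand and the treatment of fragments that fit several genes were not stated. Groups came from sample titles and columns from sample descriptions.

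The deposited counts were tested in edgeR 4.0.16 (R 4.3.3): filterByExpr (minimum count 10), TMM, glmQLFit and glmQLFTest with Benjamini-Hochberg adjustment over 13088 genes. The common dispersion corresponded to a biological coefficient of variation of 11.6%. A standard error is the size of the log2 fold change divided by the square root of F. As in the study's methods, calls were made at an adjusted p below 0.05 together with a more than 2-fold difference. A gene said to have passed, fallen or risen with no mention of a fold limit met the adjusted p alone. Counts per library were printed for 9 landmark genes, the 5 lowest and 5 highest log2 fold changes and any gene that did not pass. Other cell division genes were named where they were the lowest or highest gene past the threshold in their list. Mybl2, Lin9, E2f1, the CDK inhibitors of the G1 list and the other genes of that list that passed were named as well. The genes and lists were chosen with earlier results of these data known. Of the listed symbols, 5 were found through their gene identifiers. Alternatives were other scalings, DESeq2 1.42.0, other filters, limma 3.58.1 on log2(FPKM + 1), offsets for length and GC content (20 bins), a replicate block, glmTreat and leaving out each library. On simulated counts with 197 changed genes among 12947, edgeR recovered 99.5% and called 13 unchanged genes. Far fewer genes were changed there than in the data, where edgeR called 2612 lower and 2244 higher at an adjusted p below 0.05. How well edgeR finds changes near the median log2FC of the mitosis and spindle genes, −0.96, was not tested. Protein motifs were not analysed here. Figures were drawn with matplotlib 3.10.9.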

Additional observations from a re-analysis of the deposited data

How the results depend on the processing

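The number of the 56 genes that were lower with an adjusted p below 0.05 stayed between 54 and 56 under every alternative that gives this count. With a fold change above 2 it was 26 under TMM, between 22 and 26 under the other scalings, filters, offsets, DESeq2 and the replicate block, and between 24 and 30 when each library was left out. It was 9 with limma on log2(FPKM + 1), whose pseudocount shrinks changes, and 7 with glmTreat. The median log2 fold change was −0.89 with library size only, where the median of all genes was 0.07, and −0.72 with limma on log2(FPKM + 1). Leaving out each library gave medians from −1.03 to −0.94. The count over all genes, 1524, was 626 with limma, 1064 with at least 10 counts in every library, 1755 with no filter and from 1493 to 1546 without each library. Of 896 values of single genes under 16 alternatives none changed sign, and 4 changed side of the threshold, all for Incenp or Kif18a; the causes were not tested. With the GC offset Incenp was at −0.30 with an adjusted p of 0.0496. Same-numbered libraries of the groups did not deviate together (correlations 0.0157, −0.0256 and −0.0036). This gave no sign of a pairing by number, but so few libraries cannot exclude one. The replicate block gave a median of −0.96 with 55 genes lower. The restriction to genes that overlap no other was chosen after seeing the data.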

Other observations

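Ratios of the counts of 2 genes within a library need no scaling. They were chosen after the values had been seen, 9 ratios in all, and are given as a description, since an exact two-sided permutation test of 3 against 3 libraries cannot go below 0.1 (0.225 after Benjamini-Hochberg adjustment over the 9). The ratio of Ccna2 to Cdk1 counts was 1.67, 1.47 and 2.03 alone and 1.25, 1.41 and 0.928 in coculture, lower in all cocultured libraries. Cdc20 to Pttg1, the activator of the APC/C against one of its substrates, went from 2.04 ± 0.266 to 3.48 ± 0.403 (SD, n = 3 each). Incenp to Aurkb went from 2.62 ± 0.289 to 4.15 ± 0.633 (SD, n = 3 each), without overlap. Ccnb2 to Ccnb1 was 1.0 ± 0.122 alone and 0.756 ± 0.176 in coculture (SD, n = 3 each). Its groups did not overlap but nearly touched, with a lowest lone ratio of 0.908 and a highest cocultured ratio of 0.906. These 4 ratios reached the smallest exact permutation p, 0.1. The groups overlapped for Ccnb1 to Cdk1, Birc5 to Aurkb, Cdca8 to Aurkb, Smc2 to Smc4 and Nuf2 to Ndc80. For Nuf2 to Ndc80, subunits of one complex, the ratio was 0.919 ± 0.105 alone and 0.974 ± 0.114 in coculture (SD, n = 3 each).

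Ccnd1 rose while the mitotic cyclins fell, and its level after coculture was 361 ± 16.1 CPM against 91.5 ± 1.40 alone (SD, n = 3 each).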
